A study of Homo sapiens with 2 samples.

Results

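The mitochondrial genome of HEK293T cells carried YB-1 clusters in MT-CO1, MT-CO2 and MT-CO3, MT-ATP6 and MT-ATP8, MT-CYB, and both rRNA genes, MT-RNR1 and MT-RNR2. A cluster is a stretch of reads that holds T-to-C changes left by crosslinking. Clusters of the mitochondrial genome were taken when they shared at least 1 base with one of these 8 genes on the same strand, with gene positions from GENCODE release 44 on hg38. They numbered 25 of the 1382 clusters of Rep.A and 35 of the 2011 of Rep.B. Clusters of both replicates with an overlap of 1 base or more on the same strand were joined into 1 region and called reproducible, which gave 24 regions of the 1112 in the whole data set.

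Both libraries came from wild-type HEK293T, an established human embryonic kidney line, and their labels differ only in the replicate. The cells had received 100 µM 4-thiouridine for 16 h and 0.15 J/cm2 of light at 365 nm, and the labels name cytoplasmic RNA as the material. RNA held by an antibody to a peptide of the YB-1 C-terminus was trimmed with RNase T1, which cuts after G. No library without the antibody or without crosslinking was analysed here, so no cluster can be set against a background, and no test between conditions exists.

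YB-1 is an abundant cold shock domain protein that coats mRNA in the cytoplasm and controls its translation. The mitochondrial genome is transcribed inside the organelle into long precursors, from which the tRNAs between the genes are cut out to release mRNAs and rRNAs. MT-CO1, MT-CO2 and MT-CO3 encode the core of cytochrome c oxidase (complex IV), MT-CYB encodes cytochrome b of complex III, MT-ATP6 and MT-ATP8 encode membrane subunits of ATP synthase, and MT-RNR1 and MT-RNR2 give the rRNAs of the small and the large mitoribosomal subunit. Fragments of the mitochondrial genome have been copied into the nuclear chromosomes during evolution, and some of these copies have not diverged over the length of a PAR-CLIP read.

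The sequences below show where coverage was highest. They are the reproducible region with the highest mean log2 coverage of each gene and the next one of both rRNA genes, read 5′ to 3′ from the plus strand of hg38. Capitals mark CATC and CACC, the tetramers known for YB-1, and all other bases are in lower case.
MT-CO1, chrM:6338-6354: aacCATCttctccttac
MT-CO2, chrM:7860-7881: atccctcccttacCATCaaatc
MT-CO3, chrM:9839-9859: ctcaactttcctcactatctg
MT-ATP6, chrM:8698-8719: ataaccatacacaacactaaag
MT-CYB, chrM:14818-14831: atccaaCATCtccg
MT-RNR1, chrM:1253-1282: cctatataccgcCATCttcagcaaaccctg
MT-RNR1, chrM:1477-1503: tacaCACCgcccgtCACCctcctcaag
MT-RNR2, chrM:3197-3217: tattatacccaCACCCACCca
MT-RNR2, chrM:2227-2287: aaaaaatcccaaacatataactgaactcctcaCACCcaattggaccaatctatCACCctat
These stretches hold few G. Over all 24 regions, C was 37.4% of the bases, A 34.1%, T 23.8% and G 4.73%. In the printed MT-CO1 and MT-CO3 stretches T outnumbers A. In MT-RNR2 at 3197, in MT-CO1 at 6338 and in MT-CO2 at 7860 there is no G at all.

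MT-RNR2, the rRNA of the large mitoribosomal subunit (mitochondrial positions 1671 to 3229), had the most covered bases of the 8 genes, that is, mean coverage times width summed over its clusters. It had 5 clusters in Rep.A and 9 in Rep.B, joined into 5 regions. Its region at 3197 to 3217, near the 3′ end of the gene, was covered on average by 689.8 reads in Rep.A and by 1377 reads in Rep.B. This was the highest of the 24 regions in Rep.A and in Rep.B. The region at 2227 to 2287 had 174 reads in Rep.A and 948 reads in Rep.B. Rep.A had 1 cluster there and Rep.B had 2, of which the one at 2270 to 2287 carried 1456.5 reads. The region at 1689 to 1742, close to the 5′ end of the gene, was also 1 cluster in Rep.A (56.0 reads) and 2 in Rep.B (313 reads over both). The remaining regions at 1832 to 1851 and at 2773 to 2799 lay between 20.9 and 23.2 reads in Rep.A and between 48.5 and 50.4 in Rep.B.

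MT-RNR1, the rRNA of the small subunit (648 to 1601), had 2 clusters in each replicate with identical ends. The region at 1253 to 1282 had 141 reads in Rep.A and 365 reads in Rep.B, and the one at 1477 to 1503 had 28.7 and 46.5. Both lie in the 3′ part of the gene, the first starting at base 606 and the second at base 830 of 954. MT-RNR1 and MT-RNR2 together held 53.0% of the covered bases of the 8 genes in Rep.A and 53.0% in Rep.B, on 7 of the 25 and 11 of the 35 clusters. MT-RNR2 by itself held 44.9% and 46.5%. Per length, the rRNA genes had 2.79 regions per 1000 bases and the 6 mRNA genes 3.37.

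MT-CO1 (5904 to 7445) had 6 clusters in Rep.A, 8 in Rep.B and 6 regions, the most of the 8 genes. Its region at 6338 to 6354 had 459 reads in Rep.A and 1070 reads in Rep.B, the second highest of the 24. A region at 5922 to 5943, starting at base 19 of the gene, had 146 reads in Rep.A and 334 reads in Rep.B. The other 4 regions were low, with 5 to 31.9 reads in Rep.A and with 7 to 65.8 reads in Rep.B.

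The 2 other complex IV mRNAs each had a single high region. In MT-CO2 (7586 to 8269) it was at 7860 to 7881, with 102 reads in Rep.A and 217 reads in Rep.B, and the second region, at 7707 to 7728, had 8.94 and 20.2. In MT-CO3 (9207 to 9990) the region at 9839 to 9859 had 151 reads in Rep.A and 429 reads in Rep.B. The other 3 regions of MT-CO3 lay nearer the 5′ end, with 5 to 29 reads in Rep.A and with 17 to 81.1 reads in Rep.B.

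MT-CYB (14747 to 15887) had 3 regions. The one nearest the start, at 14818 to 14831, had 137 reads in Rep.A and 288 reads in Rep.B on 14 bases. The regions at 15393 to 15428 and at 15624 to 15686 were wider and lower, with 43.7 and 42.1 reads in Rep.A and 72.5 and 106 in Rep.B.

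MT-ATP6 and MT-ATP8, which overlap by 46 bases and are read from 1 mRNA, differed. MT-ATP6 (8527 to 9207) had 2 regions, at 8698 to 8719 with 115 reads in Rep.A and 236 reads in Rep.B, and at 8922 to 8950 with 50.1 and 108. MT-ATP8 (8366 to 8572) had no cluster in Rep.A and 1 in Rep.B, at 8369 to 8387, with 11 reads. In Rep.A the same sequence had a cluster of 3 reads on chromosome 2. No cluster of either replicate lay in the shared 46 bases. MT-ATP8 is 207 bases long, the shortest of the 8 genes. Coverage outside clusters is not in the tables, so YB-1 contacts below the calling threshold were not detectable.

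**Figure D1:**
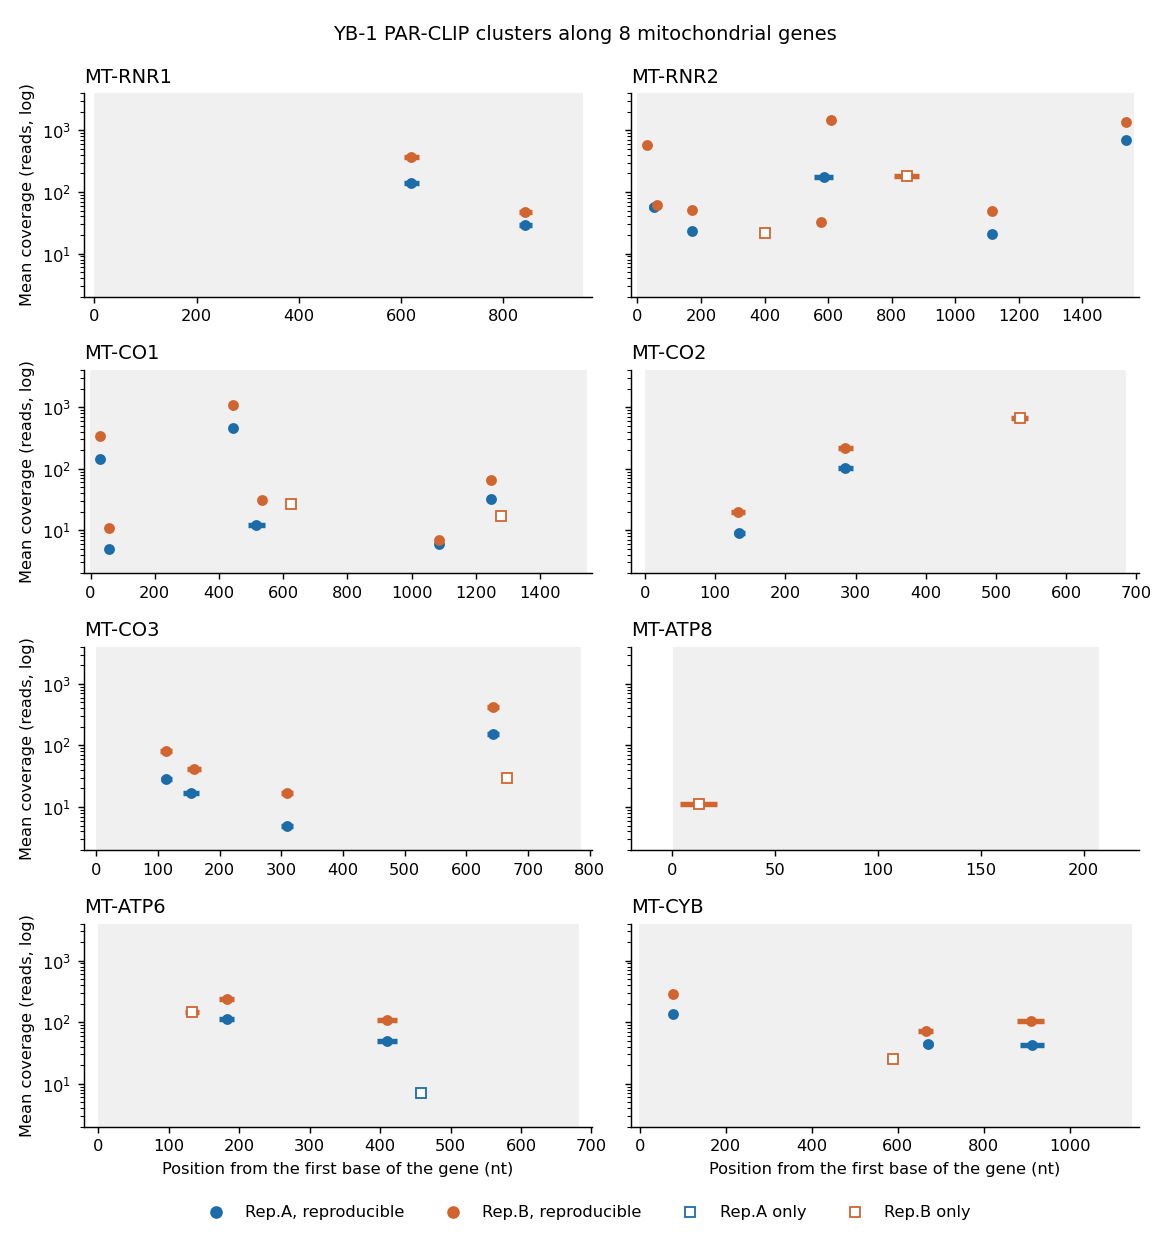
Mean coverage in reads (log axis) of each cluster against its position in bases from the start of the gene, for the 8 genes. Bars span the cluster, blue is Rep.A and orange is Rep.B, filled points overlap a cluster of the other replicate and open squares do not. The Rep.B points lie above the Rep.A points of the same region, apart from the lower of the 2 Rep.B clusters in the MT-RNR2 region at 2227, and MT-ATP8 has a single open square.

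Of the 25 clusters of Rep.A, 24 overlapped a Rep.B cluster (96.0%, 95% Wilson interval 80.5 to 99.3%), against 80.5% of all Rep.A clusters. Of the 35 clusters of Rep.B, 26 overlapped one of Rep.A (74.3%, 57.9 to 85.8%), against 55.5% of all Rep.B clusters. The intervals cover counting error only, and the percent over all clusters lay at the lower end of the interval in Rep.A and below it in Rep.B. In the mitochondrial genes of complex I the numbers were 25 of 26 in Rep.A and 25 of 30 in Rep.B, and a difference from these was not tested. Both ends of the cluster were the same in Rep.A and Rep.B for 14 of the 24 regions.

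The cluster with no partner in Rep.A was in MT-ATP6 at 8980 to 8989, with 7 reads. The 9 of Rep.B were in 7 genes, 2 in MT-RNR2, 2 in MT-CO1 and 1 each in MT-CO2, MT-CO3, MT-ATP6, MT-ATP8 and MT-CYB. Of these, 6 had between 11 and 29.7 reads, and 3 stood above. They were the MT-CO2 cluster at 8107 to 8131 with 677 reads, the MT-RNR2 cluster at 2479 to 2557 with 185 and the MT-ATP6 cluster at 8649 to 8669 with 146.0. In Rep.B these 3 lay within or above the range of the reproducible regions of the same gene. The MT-CO2 and the MT-ATP8 clusters of Rep.B are printed here in addition, chosen after their values were seen, because one is the highest cluster without a partner and the other is the only cluster of its gene.
MT-CO2, chrM:8107-8131: aattcccggacgtctaaaccaaacc
MT-ATP8, chrM:8369-8387: ccccaactaaatactaccg
Neither holds CATC or CACC, and the MT-CO2 cluster follows a C and ends in C, although RNase T1 cuts after G.

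Clusters of the 8 genes were more deeply covered than most. Their median coverage was 42.1 reads in Rep.A and 65.8 reads in Rep.B, against 12.1 and 25 over all clusters and 26 and 82.1 over those of the complex I genes. They were 1.81% of the clusters of Rep.A and 1.74% of those of Rep.B, and 5.49% and 5.39% of the covered bases. Among the 100 clusters with the highest coverage, 9 of Rep.A and 10 of Rep.B were in the 8 genes. The score ran the other way. The relative log odds are the evidence of wavClusteR for crosslinking per T base. Their median over the 8 genes was 0.0801 in Rep.A and 0.178 in Rep.B, against 0.150 and 0.192 over all clusters. Over the clusters of the complex I genes it was lower still, 0.0747 and 0.133. Only 6 of the 25 clusters of Rep.A and 15 of the 35 of Rep.B scored at least the median of all clusters in their library.

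Coverage, which is not scaled for library depth, was higher in Rep.B in 24 of the 24 regions, and so it was in 97.9% of all reproducible regions. The log2 difference, Rep.B minus Rep.A, had a median of 1.18 (SD 0.48 over 24 regions) and ran from 0.22 to 2.48. Scaled by the mapped reads of each library, the median was -0.21, so its direction turns with depth scaling. Outside the mitochondrial genome the unscaled median was 1.39 (SD 0.72, n = 1060 regions). Across the 24 regions, the log2 coverages of both replicates gave Pearson's r = 0.974 and Spearman's rho = 0.984, and across the 1060 others r = 0.906 and rho = 0.874. The regions share both libraries and are not independent, so no p-value is given. The 2 highest differences, 2.48 and 2.45, were the MT-RNR2 regions at 1689 and 2227, where 1 Rep.A cluster overlapped 2 of Rep.B. In these 2 regions the widths behind the mean coverage differ between the replicates. Widths also differ in some regions with smaller differences. The MT-CO1 region at 6393 has 54 bases in Rep.A, 20 in Rep.B and a difference of 1.37.

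**Figure D2:**
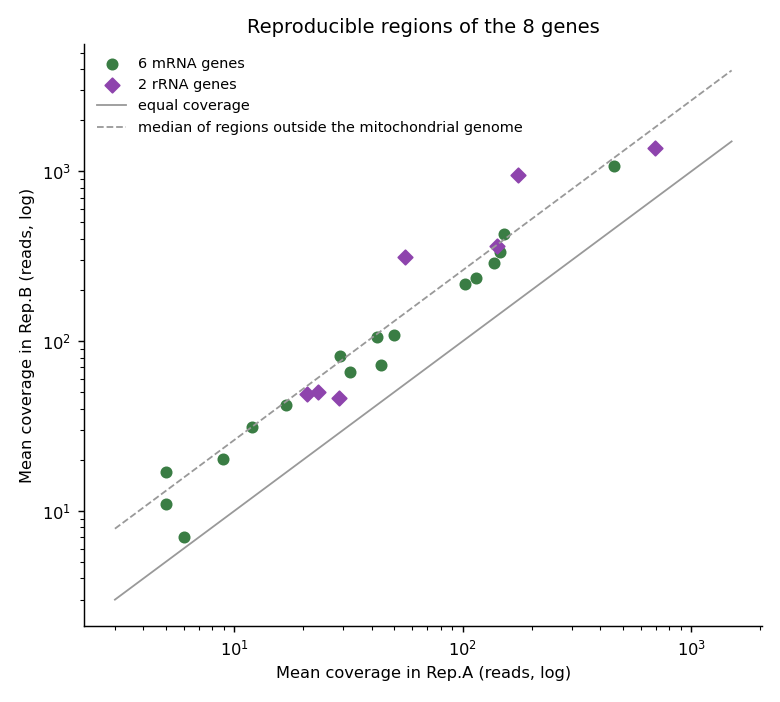
Mean coverage in Rep.B against Rep.A, in reads on log axes and not scaled for depth, for the 24 reproducible regions (circles, 17 regions of mRNA genes, and diamonds, 7 of rRNA genes). The solid line is equal coverage and the dashed line lies 1.39 above it on the log2 scale, the median of the regions outside the mitochondrial genome. All points lie above the solid line, and 2 diamonds stand clear above the dashed line.

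Many of these sequences also lie on nuclear chromosomes. The clusters do not show which of several equally good positions the authors' alignment gave to a read. Reads of a mitochondrial RNA and reads of an exact nuclear copy therefore cannot be told apart. Coverage was near equal between both positions at some sites and far apart at others, as given below, and the cause was not tested. Of the 23 regions of at least 15 bases, 10 had an exact copy outside the mitochondrial genome (43.5%, 95% Wilson interval 25.6 to 63.2%), against 45.4% of all reproducible regions of 15 to 100 bases with a copy elsewhere. With 1 mismatch allowed, 16 of the 23 had a copy. The 10 were 8 of 16 regions of mRNA genes and 2 of 7 of rRNA genes. The MT-CYB region at 14818 is shorter than 15 bases and was not counted.

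The 10 regions had 15 copies, and 14 of these carried a cluster in at least 1 replicate, 12 of them in both. Copies on chromosome 1 numbered 7, all of MT-CO1, MT-CO2 or MT-CO3 sequence. The MT-CO1 region at 6338 had its copy at chr1:631508-631524, on the plus strand, with 420 reads in Rep.A and 1078 reads in Rep.B, beside 459 and 1070 on the mitochondrial genome. For the MT-CO1 region at 5922 the copy at chr1:631092-631113 had 142.5 reads in Rep.A and 389 reads in Rep.B, beside 146 and 334. Over the 7 regions with a single exact copy, coverage of the copy minus that of the mitochondrial region had a median of -0.32 on the log2 scale in Rep.A and 0.01 in Rep.B. With the coverage of exact copies added, the MT-CO1 region at 6338 came to 879 reads in Rep.A and 2148 reads in Rep.B, the highest of the 24, ahead of the MT-RNR2 region at 3197, which has no exact copy.

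**Figure D3:**
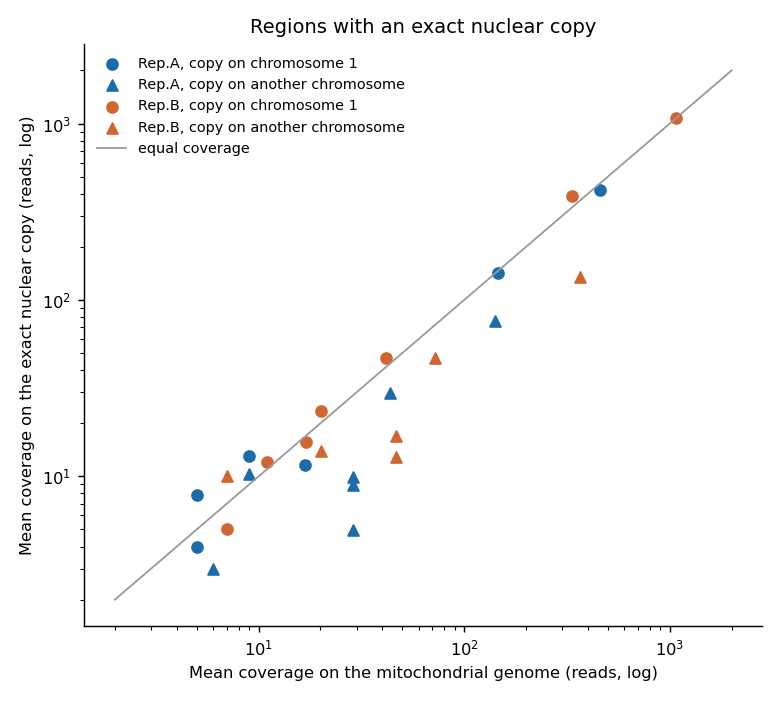
Mean coverage on an exact nuclear copy against that on the mitochondrial genome, in reads on log axes, for the copies that carried a cluster (13 in Rep.A, blue, and 13 in Rep.B, orange). Circles are copies on chromosome 1 and triangles copies on other chromosomes. The circles lie near the line of equal coverage over the whole range, and most triangles lie below it.

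Seen from the other side, 33 clusters of 15 to 100 bases on nuclear chromosomes in Rep.A, and 45 in Rep.B, had a sequence found whole and without mismatch in one of the 8 genes. Beside the clusters of the genes themselves they were 47.3% of the covered bases of both kinds in Rep.A and 45.9% in Rep.B. The share was highest in MT-RNR1 among genes with clusters of both kinds in both replicates, 82.8% in Rep.A and 83.3% in Rep.B. In MT-RNR2 it was 39.5% and 41.7%, in MT-CO1 46.6% and 52.5%, and in MT-CYB 12.0% and 10.8%.

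Placed along the genes, these nuclear clusters fell on 27 sites, 18 of which also had a cluster on the mitochondrial genome in at least 1 replicate and 9 of which had none. Of the 9, 4 had nuclear clusters in both replicates, 3 of them in rRNA genes and 1 in MT-CO1, where coverage summed to 10.5 reads in Rep.A and 21.7 reads in Rep.B. The 3 rRNA sites are printed here from the mitochondrial genome, at the extent of the most covered Rep.A cluster, because their coverage is among the highest of any listed gene sequence and the clusters of the mitochondrial genome leave them out.
MT-RNR1, chrM:720-739: ttCACCctctaaatCACCac
MT-RNR1, chrM:1228-1247: atcaacctCACCACCtcttg
MT-RNR2, chrM:2384-2400: atctacaatcaaccaac
The first has 1 exact copy in the nuclear genome, at chr2:148881729-148881748 on the minus strand, and that copy carried 663 reads in Rep.A and 1613 reads in Rep.B. The second has 2 copies, with 181 reads in Rep.A and 469.65 reads in Rep.B on chromosome 5, and 173 and 456 on chromosome 11. The third has 3 copies, of which the one on chromosome 3 carried 354 reads in Rep.A and 929.7 reads in Rep.B, and the one on chromosome 4 carried 362 and 904. Both MT-RNR1 sites hold CACC 2 times and the MT-RNR2 site holds neither tetramer. Why no cluster was called at the same sequence on the mitochondrial genome was not tested, since the tables hold no reads.

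At some sites only Rep.B had a cluster on the mitochondrial genome, while nuclear clusters with the same sequence were present in both replicates. The MT-RNR2 stretch at 2479 to 2519 had 4 nuclear clusters in Rep.A, with 208 reads in sum, and no mitochondrial cluster. Rep.B had 11 nuclear clusters there, with 1179 reads in sum, and a mitochondrial cluster of 185 reads. That cluster is wider than the stretch and reaches 2557. The MT-CO1 cluster of Rep.B at 6518 to 6537, with 27 reads and no partner in Rep.A, had a nuclear cluster with its sequence in each replicate, with 16 reads in Rep.A and 33 reads in Rep.B. For the MT-CO2 cluster at 8107 to 8131, with 677 reads in Rep.B, the nuclear clusters of its sequence had 5.38 reads in Rep.A and at most 14.2 in Rep.B. At this last site the copies were far below the mitochondrial cluster. The MT-ATP8 stretch at 8369 to 8387 has 2 exact copies outside the mitochondrial genome, and its only Rep.A cluster, with 3 reads, lay on a nuclear chromosome, while its only Rep.B cluster, with 11 reads, lay on the mitochondrial genome.

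**Figure D4:**
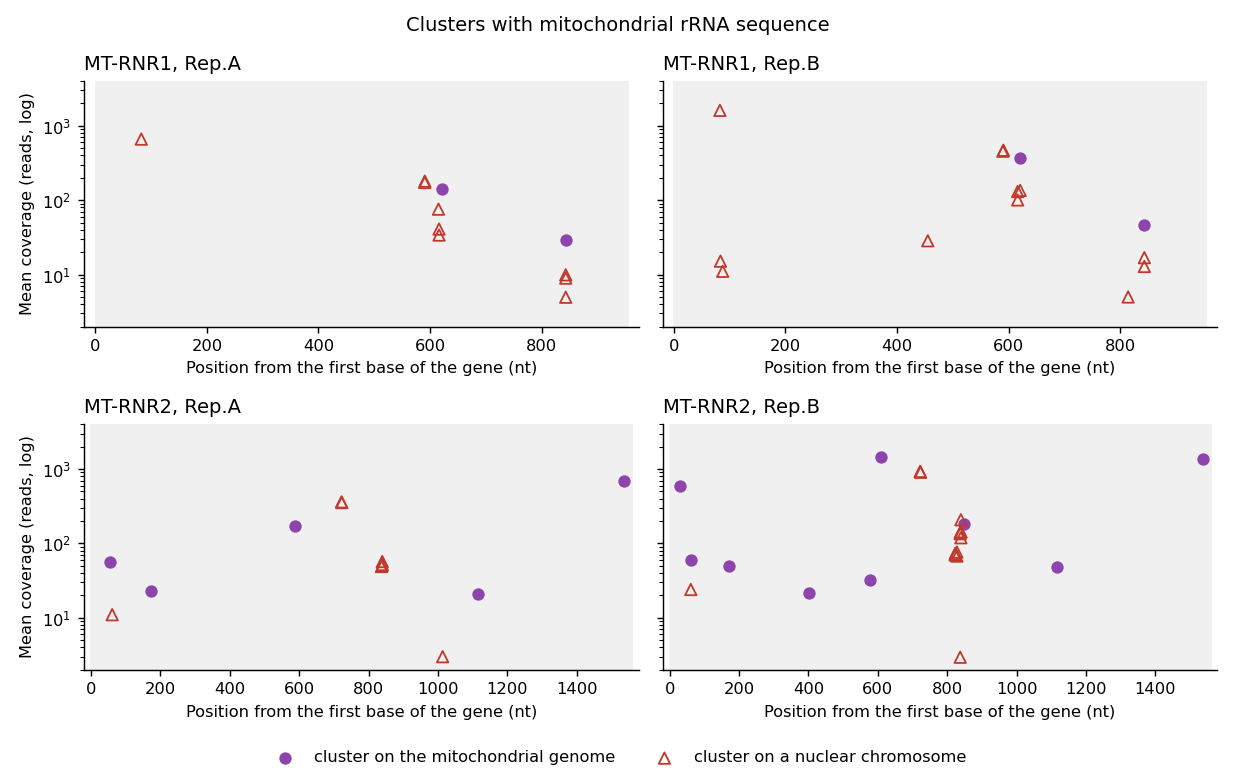
Mean coverage in reads (log axis) of clusters on the mitochondrial genome (filled circles) and of clusters on nuclear chromosomes with the same sequence (open triangles), against the position in bases from the start of MT-RNR1 or MT-RNR2, in each replicate. In MT-RNR1 the triangle at base 73, with 663 reads in Rep.A and 1613 reads in Rep.B, is above every filled circle.

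Regions ended in G, the base after which RNase T1 cuts, in 17 of 24 cases (70.8%, 95% Wilson interval 50.8 to 85.1%), against 86.1% of all reproducible regions. This held for 13 of 17 regions of mRNA genes and for 4 of 7 of rRNA genes. Of the single clusters, 17 of 25 in Rep.A (68%) ended in G, against 83.1% of all clusters of Rep.A, and 23 of 35 in Rep.B (65.7%), against 77.7%. In regions of the complex I genes the last base was G in 24 of 25, and in exons of nuclear protein-coding genes in 96.6%. The 7 regions that ended in another base were 3 of MT-RNR2, 2 of MT-CO2, 1 of MT-CO1 and 1 of MT-CYB, and they include the 3 regions with the highest mean log2 coverage. Differences between these sets were not tested.

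Regions held less G than the genes around them. Bases G were 6.67% of the regions of rRNA genes and 17.9% of those genes, and 3.71% of the regions of mRNA genes and 13.7% of those genes. C was 39.2% of the rRNA regions against 25.9% of the genes, and 36.5% of the mRNA regions against 32.1%. A fragment that RNase T1 leaves whole holds G at its end alone. In the 8 genes, 139 such fragments between cuts are 15 to 60 bases long, and 28 of them (20.1%) overlapped a region, 9 of 32 in the rRNA genes and 19 of 107 in the mRNA genes. Those of the rRNA genes were 9 of 23 in MT-RNR2 and 0 of 9 in MT-RNR1. An overlap of 1 base counted, so a wide region could count for several fragments. Clusters that were exactly a whole fragment between cuts were 5 of 25 in Rep.A and 12 of 35 in Rep.B. The same shares outside the 8 genes are not given.

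CATC was found in 8 of the 24 regions (33.3%, 95% Wilson interval 18.0 to 53.3%), against 37.9% of all reproducible regions. CACC was found in 6 (25%, 12.0 to 44.9%), against 37.7%, and 14 regions held either one (58.3%, 38.8 to 75.5%), against 61.2%. No region held both and 10 held neither. Matches are to these letters on the strand of the gene. Of all windows of the same widths in the 8 genes, 17.7% held CATC, 18.9% CACC and 33.0% either one, and of those windows with as many G as the region, 19.3%, 25.3% and 39.8%. The share with CACC thus lay near that of windows with as many G, and the percent with CATC above it with an interval that reaches it.

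The 2 tetramers were spread unevenly. CACC was in 4 of the 7 rRNA regions and in 2 of the 17 mRNA regions, in MT-ATP6 and MT-CYB. CATC was in 1 of 7 rRNA regions and in 7 of 17 mRNA regions, 4 of them in MT-CO1, 2 in MT-CYB and 1 in MT-CO2. The regions of MT-CO3 held neither. Windows of the rRNA genes with as many G as the regions held CACC in 41.6% and CATC in 5.56%, and those of the mRNA genes in 18.6% and 25%, so the windows themselves differ in the same direction.

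**Figure D5:**
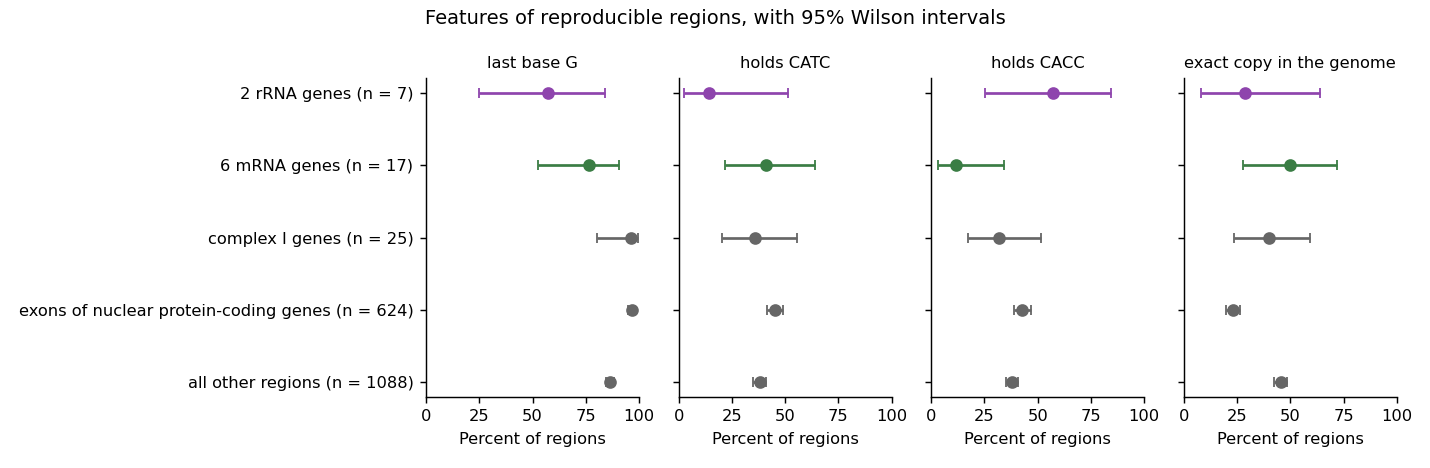
Percent of reproducible regions that end in G, hold CATC, hold CACC or have an exact copy elsewhere in the genome, by set, with 95% Wilson intervals as bars. The copy panel uses only regions of 15 to 100 bases, 7 of rRNA genes and 16 of mRNA genes. The intervals of the rRNA and mRNA genes are wide and overlap in all 4 panels.

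More than 1 T position with a T-to-C change was counted in 6 of the 25 clusters of Rep.A (24%, 95% Wilson interval 11.5 to 43.4%), against 13.8% of all clusters of Rep.A. In Rep.B it was 9 of 35 (25.7%, 14.2 to 42.1%), against 14.5%. The most was 3 positions, in the MT-RNR2 clusters at 2227 (Rep.A) and 2479 (Rep.B) and in the MT-CYB clusters at 15393 and 15624 (Rep.B). These clusters are wide, at 61, 79, 36 and 63 bases, and hold 13, 16, 8 and 16 T. Over all clusters of either replicate the medians were 22 bases and 5 T. The count of positions is not scaled for width or T bases. The median crosslinking efficiency, the fraction of T bases with a T-to-C change, was 0.2 in Rep.A against 0.25 in Rep.B. Over all clusters it was 0.2 in either replicate.

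The other RNAs of the mitochondrial genome were covered unevenly. A reproducible region lay in 5 of the 7 complex I genes and in 1 of the 22 tRNA genes. All but 1 of the 55 mitochondrial clusters of Rep.A and all but 2 of the 71 of Rep.B were on the plus strand, the strand of the 8 genes. A single cluster, in Rep.A, lay antisense to one of the 8, in MT-TS1, a tRNA gene on the other strand that meets the end of MT-CO1.

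Most of the partners of these RNAs are encoded in the nucleus and translated in the cytoplasm. None of the 9 complex III subunits and none of the 16 complex IV subunits had exons with a reproducible region, and 1 of the 18 ATP synthase subunits did, against 2.8% of all nuclear protein-coding genes. That gene was ATP5F1C, the gamma subunit of the rotor, with regions of 13 and 11 reads in Rep.A and 47 and 39.1 in Rep.B. Of proteins of the mitoribosome, 2 of 33 of the small and 3 of 50 of the large subunit had one. Of 44 factors that make, process or translate mitochondrial RNA or insert its products, 1 had a region (2.27%), near the 2.8% above. It was OXA1L, the inner membrane insertase, with 44.3 reads in Rep.A and 128 reads in Rep.B. These lists are short and expression is not in the tables, so a gene without a region is not shown to be unbound.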

How the data were processed

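YB-1 PAR-CLIP clusters of 2 replicates of 1 condition were analysed. The authors used cutadapt 2.10 for trimming, Bowtie 1.0.0 for alignment to hg38 and wavClusteR for calling clusters in each replicate separately. Coverage as deposited is a signal, the mean number of reads over the bases of a cluster, without scaling for depth. The deposited transitions and T bases are counts, the deposited crosslinking efficiency is a fraction, and the deposited log odds are a score. The study states deduplication for its libraries in general and does not list it among the PAR-CLIP steps, so remaining PCR duplicates would inflate coverage. Total reads are not in the deposited tables, and the mapped reads used for scaling are those that the study lists for each library.

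The sequence of each of the 3393 clusters matched hg38. No cluster was removed. The 8 genes and all lists were chosen with earlier results of these data known. Printed regions are the most covered of each gene, and the next one of both rRNA genes. Exact copies were searched on both strands of the reference chromosomes, and the search and the joining of clusters were tested on simulated data. Windows with as many G, the 3 printed sites without a mitochondrial cluster and the placement of nuclear clusters along the genes were chosen after the values were seen. Intervals are 95% Wilson intervals. Computations ran in Python 3.11.15 with pandas 2.3.3, numpy 2.4.6, scipy 1.17.1 and matplotlib 3.10.9.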

Additional observations from a re-analysis of the deposited data

How the results depend on the processing

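Of 29 values recomputed under alternatives, 21 stayed within the limits set for them, which were 1.5 times for a count, the Wilson interval for a percent of regions, and 1 SD otherwise. Some of the 21 could not have left their limits. All 60 clusters lie inside their gene, so requiring 0.5 of a cluster in the gene removed none. For the rRNA share the limit was the SD of both replicates, so either replicate alone lies within it by construction. With clusters that score at least the median of their library, the 8 genes kept 6 clusters in Rep.A, 15 in Rep.B and 5 reproducible regions. With clusters of at least 15 bases that have no exact copy outside the mitochondrial genome, 12 reproducible regions were left. The rRNA genes then held 68.5% of the covered bases in place of 53.0%. This setting also leaves out shorter clusters, such as those of 14 bases in MT-CYB at 14818, whose copies were not counted. By the number of clusters, the rRNA genes held 29.7%. The counts fall by construction, since fewer clusters enter, and the cause of the other shifts was not tested. With 1 mismatch allowed, 16 of 23 regions had a copy in place of 10. Over the regions, Rep.B minus Rep.A on the log2 scale had a median of 1.18 as deposited and of -0.21 when scaled by the mapped reads of each library, so its direction turns with that scaling. Without the overlap between replicates, regions ranged from 25 without Rep.B to 35 without Rep.A. The share with CATC then ranged from 25.7% to 32%, with CACC from 20% to 25.7%, and with a last G from 65.7% to 68%, while the rRNA share remained at 53.0%. With 2 libraries, the spread between replicates rests on 1 difference, and coverage below the calling threshold is not in the tables.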
